A study of Mus musculus with 9 samples.

Results

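Expression of 10 genes best known from skeletal muscle was followed through sorted thymic epithelium: Myog, Myod1, Chrna1, Musk, Acta1, Actc1, Ckm, Ryr1, Ttn and Des. They were chosen by symbol as muscle antigens, and all 10 were found among the 38720 genes of the deposited count table. Levels are given as CPM, the read count of a gene per 1000000 counts of its library.

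The thymus presents proteins of peripheral tissues to developing T cells, and medullary thymic epithelial cells (mTEC) transcribe many such tissue-restricted genes. Aire is the best-known regulator of this expression, and some medullary cells take on muscle-like programmes. The muscle acetylcholine receptor, whose alpha subunit is encoded by Chrna1, is the main autoantigen of myasthenia gravis, a disease linked to the thymus. Cortical thymic epithelial cells (cTEC) support earlier T cell stages, and the transcription factor Foxn1 is needed for the formation and upkeep of both lineages.

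RNA from sorted mouse thymic epithelium formed 6 groups with 20 libraries. Both subsets were sorted as CD45-negative, EpCAM-positive and MHC class II-positive cells, cTEC as Ly51-positive and UEA1-negative and mTEC as Ly51-negative and UEA1-positive. Mice on the nude background, which lacks functional Foxn1, carried a Foxn1 BAC transgene encoding a FLAG-tagged protein, either heterozygous (3 cTEC and 2 mTEC libraries) or homozygous (3 cTEC and 2 mTEC libraries). The other mice were homozygous for beta5t-rtTA and for the floxed Foxn1 allele, and all were sampled 72 hours after doxycycline. Those heterozygous for tetO-Cre gave the deleted cTEC (5 libraries), in which exons 7 and 8 of Foxn1 are removed, and those without tetO-Cre gave the control cTEC (5 libraries). Because beta5t (Psmb11) is a cTEC gene, this deletion is driven in cTEC. The sources used here give no age or pooling of the animals and do not say whether libraries came from separate mice, so p-values measure the spread between these libraries, which may be technical.

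Library totals ran from 20719630 to 22372633 counts. The summed level of 8 medullary markers was 5746 to 7131 CPM in mTEC libraries and 206 to 1749 CPM in cTEC libraries. The 8 were Krt5, Krt14, Ccl21a, Aire, Fezf2, Cd80, Cd40 and Tnfrsf11a. In cTEC most of their sum came from Krt5, Krt14 and Ccl21a. The summed level of 6 cortical markers was 142 to 497 CPM in mTEC and 1546 to 14326 CPM in cTEC. The targeted gene was counted in every library. In cTEC, Foxn1 was lower with the heterozygous than with the homozygous transgene (1166 against 1365 CPM, log2 fold change -0.36 ± 0.06, SE, adjusted p = 4.45e-04, edgeR), whereas in mTEC it was higher in the libraries labelled heterozygous (495 against 318 CPM, log2 fold change 0.66 ± 0.08, adjusted p = 1.68e-05, edgeR). These counts do not separate the transgene from the nude allele, so they do not check the copy number, and the mTEC groups are named as labelled throughout. Foxn1 counts of the whole gene did not pass the test between deleted and control cTEC (434 against 454 CPM, adjusted p = 0.783, edgeR), and a count over the whole gene does not test the loss of exons 7 and 8. Of the 6 cortical markers, 3 were called lower in deleted cTEC, 3 were not called and 0 were higher, where 1.69% of all genes tested were lower. Among them, Ccl25 was at 84.2 against 1388 CPM and Prss16 at 413 against 4226 CPM.

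The 4 promoters below are shown because their genes behaved differently under the transgene dose in mTEC: Myog did not pass the test, Chrna1 was lower and Acta1 and Actc1 were higher in the libraries labelled heterozygous. Each is the 250 bases before the RefSeq gene start (build GRCm38.p6), 5′ to 3′ on the gene's strand. Capitals mark the E-box CANNTG, the letters bound by myogenic helix-loop-helix factors such as Myog and Myod1, the CArG box bound by serum response factor, and TATAAA. The windows are chr1:134289754-134290003 on the plus strand for Myog, and on the minus strand chr2:73580339-73580588 for Chrna1, chr8:123894776-123895025 for Acta1 and chr2:114052876-114053125 for Actc1.
Myog: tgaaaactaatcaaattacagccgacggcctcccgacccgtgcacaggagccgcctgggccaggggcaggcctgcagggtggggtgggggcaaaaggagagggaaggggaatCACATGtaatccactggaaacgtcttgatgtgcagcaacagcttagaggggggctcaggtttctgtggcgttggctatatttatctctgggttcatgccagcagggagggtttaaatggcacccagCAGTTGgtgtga
Chrna1: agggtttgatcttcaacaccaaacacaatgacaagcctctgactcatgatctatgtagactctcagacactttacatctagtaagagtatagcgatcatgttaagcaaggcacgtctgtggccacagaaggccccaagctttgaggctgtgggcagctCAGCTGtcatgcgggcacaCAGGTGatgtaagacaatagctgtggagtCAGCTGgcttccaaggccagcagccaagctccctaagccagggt
Acta1: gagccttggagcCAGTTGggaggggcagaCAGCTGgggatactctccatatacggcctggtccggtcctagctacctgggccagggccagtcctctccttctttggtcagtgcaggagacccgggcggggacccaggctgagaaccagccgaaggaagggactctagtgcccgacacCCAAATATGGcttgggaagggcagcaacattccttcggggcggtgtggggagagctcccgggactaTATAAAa
Actc1: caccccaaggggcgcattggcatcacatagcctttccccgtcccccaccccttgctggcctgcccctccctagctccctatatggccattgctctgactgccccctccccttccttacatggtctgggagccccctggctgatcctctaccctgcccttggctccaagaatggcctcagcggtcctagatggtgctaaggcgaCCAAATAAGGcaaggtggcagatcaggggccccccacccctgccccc
On either strand, CANNTG was found in 7 of the 9 members with a RefSeq promoter entry and in 66.2% of all 32851 promoter windows of 250 bases. Chrna1 and Musk held 3 matches each, Myog, Acta1 and Des 2 each, Ckm and Ttn 1 each, and Actc1 and Ryr1 none. The CArG box was found in Acta1, with its first base 73 bases before the start, and in Actc1, 47 bases before it, and in 1.47% of all windows. An exact match to the MEF2 box CTAWWWWTAR (W is A or T, R is A or G) was found in Ttn alone among the 9 members and in 1.69% of all windows. Near matches were not counted, such as ctatatttat in the Myog window, which differs in the last letter. TATAAA was found in Acta1 alone and in 12.4% of all windows. GACGC, the core letters of the Foxn1 motif, was found in none of the 9 and in 22.6% of all windows. None of these motifs overlapped another in the 4 windows shown. These matches describe letters in a window and not binding.

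To compare the thymic subsets, mTEC were set against cTEC of the same transgene dose. All 10 genes were higher in mTEC at both doses, and every mTEC library lay above every cTEC library of its dose. Musk had the smallest log2 difference at either dose. Of all 19222 genes tested, 43.2% were called higher and 39.4% lower in mTEC with the homozygous transgene, and 40.4% and 31.6% with the heterozygous transgene. Of the 10 genes, 6 (Chrna1, Myog, Myod1, Ckm, Acta1 and Actc1) passed the filter on low counts only through their mTEC libraries, so their calls follow in part from that filter and their values are given as a description. In bulk RNA, fewer expressing cells and less RNA per cell cannot be told apart.

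**Figure D1:**
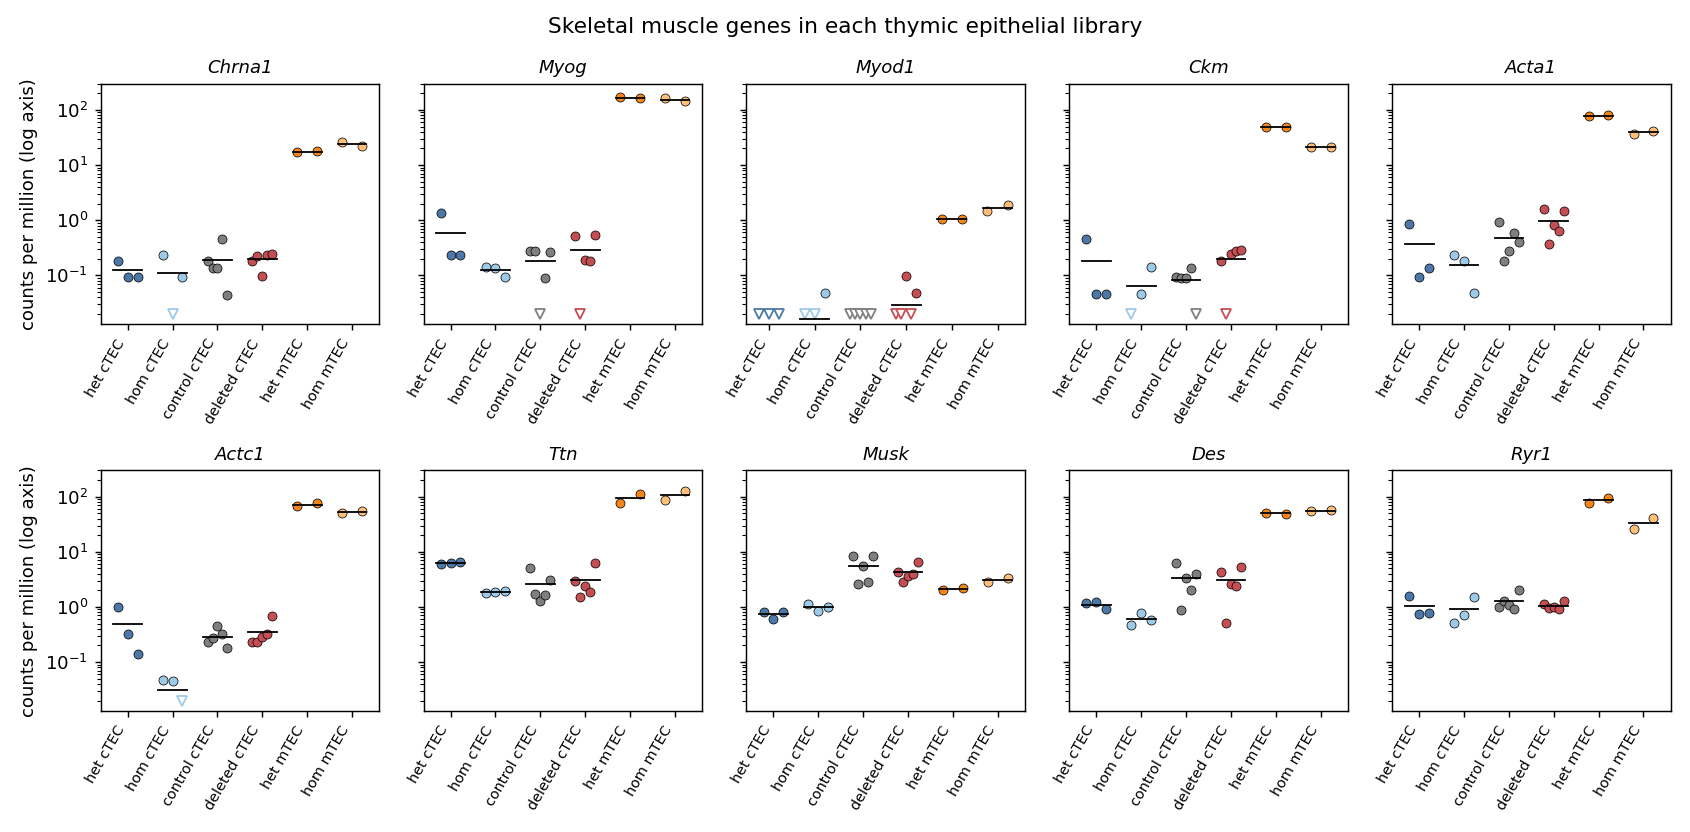
CPM of each of the 10 genes (log axis) in every library, by group. Each point is a library, the bar is the group mean and open triangles mark libraries with 0 counts. For 9 genes the mTEC libraries lie above all cTEC libraries, and for Musk (5.54 CPM in control cTEC, 3.08 CPM in homozygous mTEC) they do not.

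Among the transcription factors, Myog, the helix-loop-helix factor that drives muscle differentiation, was at 161 and 147 CPM in the homozygous mTEC libraries and at 0.140, 0.136 and 0.0951 CPM in the cTEC libraries of that dose. In heterozygous mTEC it was at 172 and 163 CPM, against 1.32, 0.232 and 0.229 CPM in cTEC. The log2 difference of mTEC over cTEC was 9.97 ± 0.29 (SE) at the homozygous and 8.03 ± 0.24 at the heterozygous dose (adjusted p = 2.35e-12 and 4.24e-12, edgeR). The 3 heterozygous cTEC libraries differed among themselves, since library 1 held 29 Myog counts and the other two held 5 each.

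Myod1, the related factor that commits cells to the muscle lineage, was detected at a low level, with 32 and 40 counts in homozygous and 22 and 22 counts in heterozygous mTEC. The cTEC libraries of the transgenic mice held 1 count in total, in a homozygous library. Against 3 counts over the group, Myod1 was at least 22.6-fold higher in heterozygous mTEC than in heterozygous cTEC. At the homozygous dose the ratio was 107 with a 95% interval of 18.7 to 4300, which covers counting error only. The control cTEC libraries were all at 0 and the deleted cTEC libraries held 3 counts in all.

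At the neuromuscular junction, Chrna1 was at 25.9 and 22.6 CPM in homozygous and at 17.4 and 17.8 CPM in heterozygous mTEC. The 16 cTEC libraries held 0 to 10 counts each. The log2 difference of mTEC over cTEC was 7.49 ± 0.29 and 7.01 ± 0.29 at the 2 doses (adjusted p = 3.5e-11 and 1.31e-10, edgeR).

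Musk, the receptor kinase that clusters acetylcholine receptors, had another order of levels. It was highest in control cTEC, at 2.55, 2.81, 5.59, 8.22 and 8.55 CPM, and next in deleted cTEC, at 2.78 to 6.56 CPM. The mTEC libraries followed at 2.82 and 3.33 CPM (homozygous) and 2.02 and 2.22 CPM (heterozygous), and the transgenic cTEC libraries were lowest, at 0.603 to 1.12 CPM. Control and deleted cTEC overlapped each other, and deleted cTEC overlapped homozygous mTEC. Within the transgenic mice Musk was higher in mTEC by a log2 difference of 1.38 ± 0.22 and 1.41 ± 0.24 (adjusted p = 4.87e-05 and 1.58e-04, edgeR). The floxed and transgenic mice differ in genotype and treatment together, so the higher level in floxed cTEC has no matched comparison.

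Of the structural genes, Actc1, the alpha-actin of heart and developing skeletal muscle, was at 50.3 and 54.3 CPM in homozygous mTEC, and the 3 cTEC libraries of that dose held 2 counts in total. The ratio was 1690 with a 95% interval of 466 to 13900 (counting error only). In heterozygous mice Actc1 was at 67.0 and 77.2 CPM in mTEC and at 1.01, 0.324 and 0.138 CPM in cTEC. Acta1, the alpha-actin of adult skeletal muscle, was 7.69 ± 0.34 and 7.64 ± 0.28 higher on the log2 scale (adjusted p = 1.13e-10 and 3.21e-11, edgeR). The coding sequences of the actin genes are nearly alike, so the split of reads between Acta1 and Actc1 is uncertain.

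Ttn, the giant spring protein of the sarcomere, and Des, the intermediate filament protein that ties sarcomeres together, were counted in every cTEC library. Ttn was at 86.3 and 126 CPM in homozygous mTEC and at 1.82, 1.90 and 1.95 CPM in cTEC, a log2 difference of 5.56 ± 0.21. Des was at 54.2 and 57.4 CPM against 0.467, 0.771 and 0.571 CPM, a log2 difference of 6.27 ± 0.14 (adjusted p = 2.03e-11 for Ttn and 1.97e-13 for Des, edgeR). Des is also made by smooth muscle and pericytes, and the summed level of 11 smooth muscle and pericyte markers was 1297 to 1423 CPM in mTEC and 213 to 453 CPM in transgenic cTEC. Most of the mTEC sum came from Rgs5 alone (926 CPM in heterozygous and 935 CPM in homozygous mTEC). Most of the homozygous cTEC sum came from Myh11 alone (407 CPM). The part of smooth muscle and pericytes in the Des level was not tested.

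Ckm, the muscle creatine kinase that buffers ATP, and Ryr1, the calcium release channel of the sarcoplasmic reticulum, completed the set. Ckm was at 21.02 and 21.2 CPM in homozygous mTEC against at most 3 counts in a cTEC library, a log2 difference of 8.05 ± 0.38 (adjusted p = 2.47e-10, edgeR). Ryr1 was at 26.4 and 40.6 CPM against 0.514, 0.725 and 1.52 CPM, a log2 difference of 4.94 ± 0.30 (adjusted p = 2.92e-09, edgeR). At the heterozygous dose the log2 differences were 7.94 ± 0.29 for Ckm and 6.29 ± 0.28 for Ryr1.

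Further muscle genes were listed by role under 90 symbols, which include second symbols of Tmem8c and Gm7325. Of the 90 symbols, 88 were in the table, and 83 of those genes were tested. Of these, 36 passed the filter on low counts only through their mTEC libraries, so that higher calls among them follow in part from the filter. The other 47 also passed in the cTEC libraries alone. With the homozygous transgene, 32 of those 47 were higher and 13 lower in mTEC, where 43.2% and 39.4% of all genes tested were called so. With the heterozygous transgene, 34 of the 47 were higher and 8 lower, beside 40.4% and 31.6% of all genes. Under the other 2 scalings Tpm1 and, with no factors, Jph1 turned sign in the homozygous comparison, and no other called list gene did in either. Chrnd and Chrng, further receptor subunits, were 8.16 ± 0.30 and 8.78 ± 0.34 higher on the log2 scale in homozygous mTEC (adjusted p = 1.99e-11 and 2.81e-11, edgeR). So were Mylpf, a fast light chain of myosin (5.57 ± 0.13), Neb, the ruler of the thin filament (5.64 ± 0.21), and Atp2a1, the fast-muscle calcium pump (4.87 ± 0.18). Lower in homozygous mTEC were Megf10, a receptor of satellite cells (5.05 against 85.2 CPM), Agrn, the nerve-derived organiser of the junction (279 against 524 CPM), and Pgam2, a glycolytic enzyme (13.3 against 34.0 CPM). Megf10 and Agrn were lower in heterozygous mTEC as well. So was Pgam2, whose call there was lost with the size factors of DESeq2 and with no factors. Ache, which splits acetylcholine, changed direction with the dose: it was lower in homozygous mTEC (289 against 715 CPM) and higher in heterozygous mTEC (239 against 158 CPM), and the 2 differences differed by 2.06 ± 0.22 on the log2 scale (adjusted p = 1.09e-05, edgeR). All 4 are also made outside muscle.

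Markers of several other cell types rose in the same comparison, where 43.2% of all genes tested were higher at the homozygous and 40.4% at the heterozygous dose. Of the satellite cell markers, all 4 tested were higher in mTEC at both doses, and of the cardiac markers 8 of 9 were higher at the homozygous and 9 of 9 at the heterozygous dose. Several of these, such as Pax7, Calcr, Chodl, Nppa, Nppb, Gata4 and Myl7, had under 10 counts in every transgenic cTEC library. That is below the minimum count of the filter, so their higher calls follow in part from the filter and are given as a description. Other lists divided. Of 12 thymocyte markers, 3 were higher and 4 lower in mTEC at the homozygous dose, and 8 higher and 0 lower at the heterozygous dose. Of 10 fibroblast markers, 6 were higher and 0 lower at the homozygous dose, and 5 higher and 4 lower at the heterozygous dose. The macrophage and dendritic cell markers summed to 542 and 642 CPM in homozygous mTEC, 108 and 112 CPM in heterozygous mTEC and 3.66 to 8.39 CPM in transgenic cTEC. The part of such cells in the muscle values was not tested. Tnnc2, the fast troponin C, had 0 counts in homozygous mTEC and 3 in heterozygous mTEC, although its partners Tnnt3 (15.6 CPM) and Tnni2 (6.41 CPM) were counted in homozygous mTEC. Myoz2, a Z-disc protein of slow muscle, had 2 counts there.

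The second question was whether the transgene dose changed the muscle genes within mTEC. In the libraries labelled heterozygous, 4 genes were higher (Ryr1, Ckm, Acta1 and Actc1) and 1 was lower (Chrna1), and 5 did not pass the test (Myog, Myod1, Musk, Ttn and Des). Of all genes tested, 59.7% were called in this comparison, 28.9% higher and 30.8% lower, so 5 calls among 10 genes is a share below that of the whole table. The members' median log2 difference was 0.01, and that of all genes tested was 0.01 as well.

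Ryr1 was at 76.1 and 95.6 CPM in mTEC labelled heterozygous and at 26.4 and 40.6 CPM in those labelled homozygous. The libraries did not overlap, and the log2 difference was 1.38 ± 0.21 (adjusted p = 1.28e-04, edgeR). Ckm was at 49.7 and 49.1 CPM against 21.02 and 21.2 CPM, with a log2 difference of 1.25 ± 0.18 (adjusted p = 8.72e-05). Its 2 libraries lay closest together of the 4 genes that were higher, in both groups. Acta1 was at 77.5 and 80.8 CPM against 36.8 and 41.7 CPM, a log2 difference of 1.04 ± 0.18 (adjusted p = 3.53e-04, edgeR). With DESeq2 on the same 4 groups, the calls of Ckm and Acta1 were lost (adjusted p = 0.324 and 0.428), whereas with the 4 mTEC libraries alone edgeR and DESeq2 each called the same 5 genes.

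Actc1 was at 67.0 and 77.2 CPM against 50.3 and 54.3 CPM, a log2 difference of 0.49 ± 0.17 (adjusted p = 0.0224, edgeR). Chrna1 was at 17.4 and 17.8 CPM against 25.9 and 22.6 CPM, a log2 difference of -0.44 ± 0.17 (adjusted p = 0.038, edgeR). Both calls were narrow. Leaving out a library ended the Chrna1 call in 5 of 10 fits (each of the 4 mTEC libraries and homozygous cTEC library 3) and the Actc1 call in 3 (heterozygous mTEC library 2 and each homozygous mTEC library). Without the filter on low counts neither was called (adjusted p = 0.054 and 0.105), and with the size factors of DESeq2, which shifted the median of all genes by -0.13, Actc1 was not called either (0.0778).

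Myog was at 172 and 163 CPM against 161 and 147 CPM, a log2 difference of 0.14 ± 0.15 (adjusted p = 0.445, edgeR). The libraries did not overlap but the gap was smaller than the spread within either group. Myod1, with 22 and 22 counts against 32 and 40, had a log2 difference of -0.66 ± 0.32 (adjusted p = 0.0946). Musk had -0.51 ± 0.22 (0.0573), and it was called lower without the filter on low counts (0.0318), with no factors (0.0481) and with the size factors of DESeq2 (0.0227). Des had -0.13 ± 0.09 (0.256) and was called with the size factors of DESeq2 alone (0.0302). Ttn overlapped, at 78.4 and 114 CPM against 86.3 and 126 CPM.

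**Figure D2:**
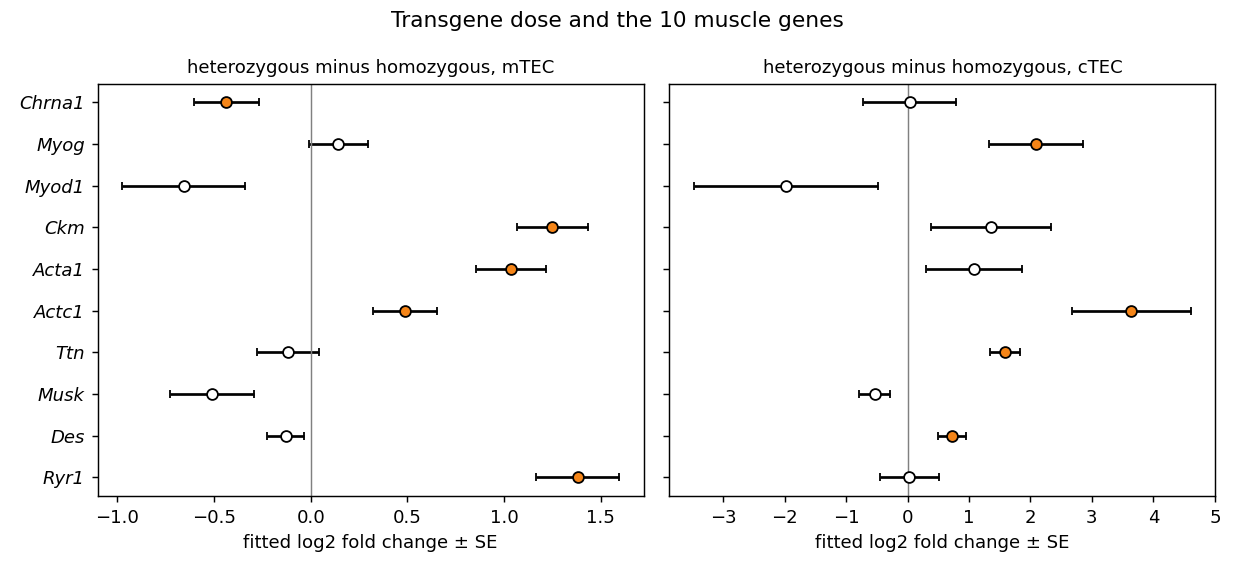
Fitted log2 fold change (heterozygous minus homozygous, ± SE) of the 10 genes in mTEC (left) and cTEC (right), with different scales on the 2 axes. Filled points passed an adjusted p of 0.05. In mTEC Ryr1 (1.38), Ckm (1.25), Acta1 (1.04) and Actc1 (0.49) lie above 0 and Chrna1 (-0.44) below it.

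Setting each gene against Myog in the same library removes the library's depth and shows how the genes differed among themselves. The Ckm count was 0.289 and 0.302 of the Myog count in mTEC labelled heterozygous and 0.130 and 0.145 in those labelled homozygous. For Acta1 the ratios were 0.451 and 0.497 against 0.228 and 0.284, and for Ryr1 0.442 and 0.588 against 0.164 and 0.277. Chrna1 went the other way, at 0.101 and 0.110 against 0.160 and 0.154.

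**Figure D3:**
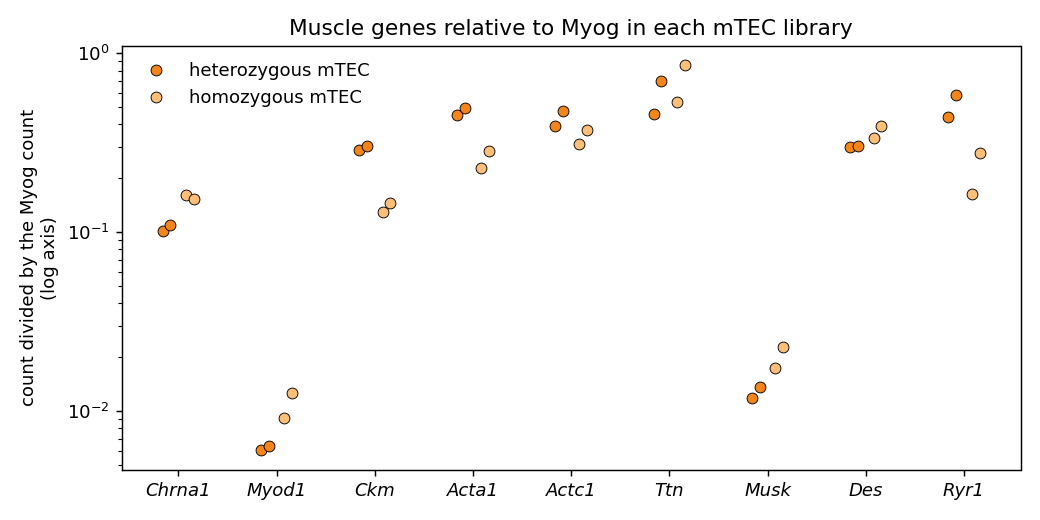
Count of each muscle gene divided by the Myog count of the same library (log axis), for the 4 mTEC libraries. Ckm, Acta1, Ryr1 and Actc1 were higher relative to Myog in both libraries labelled heterozygous, and Chrna1, Myod1, Musk and Des in both labelled homozygous. Ttn overlapped. Heights are not comparable between genes, which differ in transcript length.

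Ttn and Ryr1 also separated the libraries within a group. Ttn was 1.45-fold higher in library 2 than in library 1 of the mTEC labelled heterozygous and 1.46-fold higher in those labelled homozygous, at the 99.4 and 98.7 percentile of all genes with at least 100 counts. Ryr1 was 1.26-fold and 1.54-fold higher in library 2, at the 97.0 and 99.2 percentile. The cause of the difference was not tested. Without library 1 of both heterozygous groups the Ttn difference between the doses turned from -0.12 to 0.12, uncalled both times.

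Among the other muscle genes of mTEC, 24 were higher and 21 lower in the libraries labelled heterozygous of 83 tested. Of all genes tested, 28.9% were called higher and 30.8% lower, so these counts do not set the muscle genes apart. Their median log2 difference was 0.13 against 0.01 over all genes tested. No called gene turned sign under the other 2 scalings, and Mef2d and Tpm1 lost their call with the size factors of DESeq2. The receptor subunits divided. Chrng, the gamma subunit of fetal receptors, was at 22.3 against 10.8 CPM (log2 difference 1.07 ± 0.14, adjusted p = 3.22e-05, edgeR), Chrnd, the delta subunit, at 41.1 against 22.8 CPM (0.87 ± 0.15, 2.65e-04) and Chrnb1, the beta subunit, at 33.1 against 26.2 CPM (0.36 ± 0.09, 0.00452). Chrne, the epsilon subunit that replaces gamma in adult receptors, was lower, at 33 and 23 counts against 63 and 60 (-1.08 ± 0.29, 0.00763). Lrp4, the agrin receptor that works with Musk, was higher (199 against 117 CPM), while the junction genes Agrn, Ache, Colq, Dok7 and Rapsn did not pass the test.

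The thick filament list held 7 higher and 4 lower genes of 16, beside 28.9% and 30.8% of all genes tested. Mybpc1, the slow-type myosin-binding protein C, showed the largest rise of the list, from 22.01 to 88.5 CPM (2.03 ± 0.14, adjusted p = 1.43e-07, edgeR). Of the myosin heavy chains, the perinatal Myh8 (49.7 against 23.8 CPM) and the fast Myh4 (67.4 against 43.7 CPM) were higher, the embryonic Myh3 was lower (6.98 against 16.2 CPM), and Myh1, Myh2 and Myh7 did not pass the test (adjusted p = 0.126, 0.104 and 0.14). The light chains Myl1 and Mylpf of fast muscle were higher (0.64 ± 0.15 and 0.42 ± 0.09), and Myl2, Myl3 and Myl4, which are known from heart, slow or developing muscle, were lower (-2.52 ± 0.55, -2.50 ± 0.34 and -1.06 ± 0.29). Myl2 rests on few reads (0.118 against 0.718 CPM). It passed the filter on low counts only through homozygous mTEC, so its lower call follows in part from that filter.

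**Figure D4:**
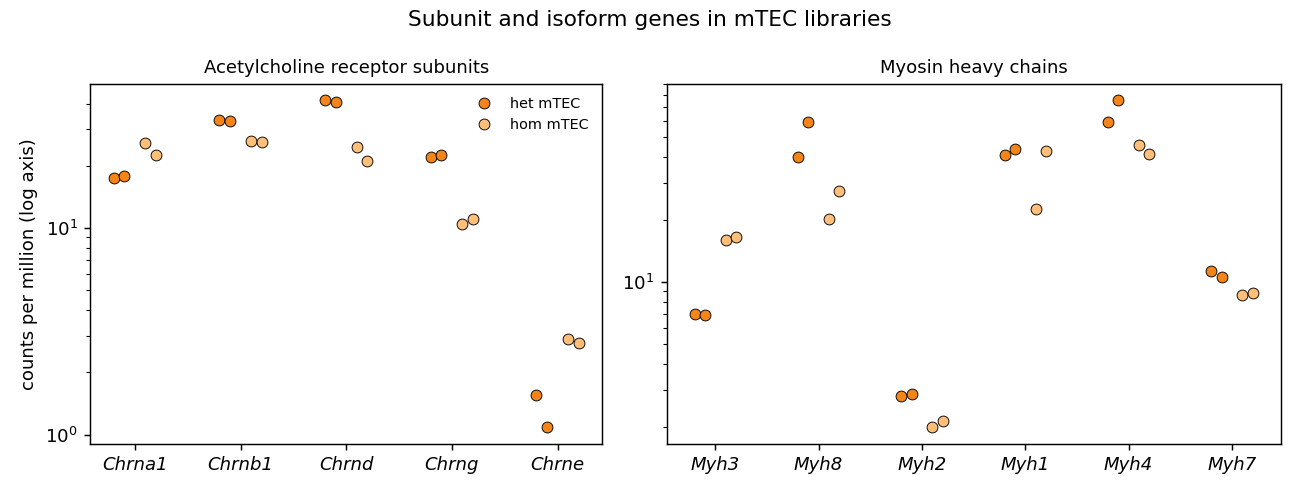
CPM (log axis) of the acetylcholine receptor subunit genes and the myosin heavy chain genes in the 4 mTEC libraries, 2 for each dose. Chrng, Chrnd and Myh8 are higher in both libraries labelled heterozygous, and Chrne and Myh3 (6.98 against 16.2 CPM) are higher in both labelled homozygous.

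The Z-disc list held 1 gene higher and 6 lower of the 13 tested beside Ttn and Des. Over all genes tested the shares were 28.9% higher and 30.8% lower. Synpo2l, an actin-associated protein of the Z-disc, rose from 5.88 to 10.4 CPM. Csrp3 (1.53 to 0.165 CPM), Xirp1 (3.33 to 1.20 CPM), Xirp2 (0.718 to 0.0472 CPM), Myot and Smyd1 were among those that fell. Csrp3 and Xirp2 passed the filter on low counts only through homozygous mTEC, so their lower calls follow in part from that filter. In the thin filament, the tropomyosins Tpm1 and Tpm2 and the fast troponin T Tnnt3 were higher, and the slow-muscle troponins Tnni1 and Tnnc1 were lower. In excitation-contraction coupling, Atp2a1 (82.7 against 39.9 CPM) and Srl were higher, as Ryr1 was, but Cacna1s, the voltage sensor that opens Ryr1, was lower (2.07 against 10.9 CPM, log2 difference -2.37 ± 0.21, adjusted p = 1.51e-06, edgeR). Trdn, the triadin that anchors Ryr1, and Jph1 were lower too. In energy metabolism, Pfkm and Pgam2 were higher and Eno3 (77.9 against 124 CPM) and Ampd1 were lower.

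The myogenic factors went both ways. Pax7, the satellite cell factor, was at 2.62 against 7.22 CPM (-1.44 ± 0.20, adjusted p = 4.71e-05, edgeR), and Pax3 and Tmem8c, the fusion protein myomaker, were lower as well. Six4, Mef2a, Mef2c, Mef2d and Megf10 were higher, and Myf6, Cdh15 and Gm7325 did not pass the test. Of the satellite cell markers 3 of 4 tested were lower, as were 5 of 9 cardiac markers, 7 of 8 macrophage and dendritic cell markers and 10 of 12 thymocyte markers. Of all genes tested, 30.8% were called lower. Among the cardiac markers, Nppa (8 against 69 counts) and Nppb (6 against 89 counts) rest on few reads. Nppa and Nppb passed the filter on low counts only through homozygous mTEC, so their lower calls follow in part from that filter. Lyz2 made up most of the macrophage sum (87.5 against 507 CPM). Aire was at 1009 ± 14.7 against 1109 ± 112 CPM (SD, n = 2 each). Their part in the muscle values was not tested.

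**Figure D5:**
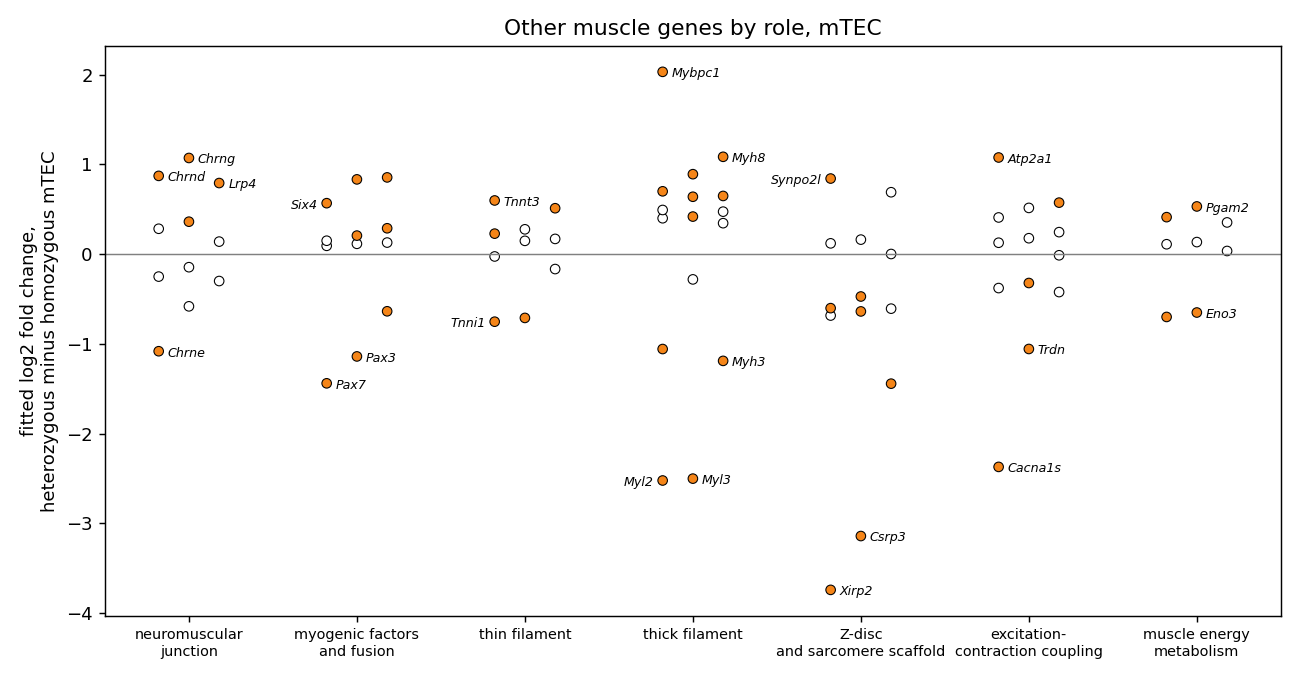
Fitted log2 fold change (heterozygous minus homozygous mTEC) of the muscle genes other than the 10, by role. Each point is a gene and filled points passed an adjusted p of 0.05. Calls lie on both sides of 0 in all 7 lists, from Mybpc1 (2.03) to Xirp2 (-3.74). Xirp2 rests on few reads (0.0472 against 0.718 CPM).

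The same dose comparison was made in cTEC, where most of these genes had few counts. With the heterozygous transgene 4 were higher (Actc1, Myog, Ttn and Des), none was lower, and 6 did not pass the test. Over all genes tested 42.8% were called, 20.9% higher and 21.9% lower. The members' median log2 difference was 0.91 against 0.00 over all genes, but 6 members entered this test only through their mTEC libraries, and with the 6 cTEC libraries alone, where 4 members passed the filter, Ttn was the 1 gene called.

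Ttn was at 5.94, 6.35 and 6.42 CPM in heterozygous cTEC and at 1.82, 1.90 and 1.95 CPM in homozygous cTEC. The groups did not overlap and each spanned a narrow range, and the log2 difference was 1.58 ± 0.25 (adjusted p = 1.74e-04, edgeR). This call was kept in all 10 fits that left out a library. Des was at 1.19, 1.21 and 0.918 CPM against 0.467, 0.771 and 0.571 CPM, a log2 difference of 0.73 ± 0.23 (adjusted p = 0.0243, edgeR), and its call was lost in 4 of the 10 fits, those without heterozygous library 1 or 2 or homozygous library 1 or 3.

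Actc1 held 22, 7 and 3 counts in heterozygous cTEC and 1, 1 and 0 in homozygous cTEC, a log2 difference of 3.64 ± 0.97 (adjusted p = 0.00802, edgeR). Myog held 29, 5 and 5 counts against 3, 3 and 2, a log2 difference of 2.09 ± 0.77 (adjusted p = 0.042). Without heterozygous library 1 the Myog difference was 0.72 (adjusted p = 0.408), and its call was also lost without any 1 of the homozygous libraries of either subset. Library 1 was high for several muscle genes at once, with 10 Ckm counts against 1 and 1, 19 Acta1 counts against 2 and 3 and 34 Ryr1 counts against 16 and 17. In the same 3 libraries Aire had 36, 28 and 29 counts and Fezf2 9, 5 and 4. Musk, at 0.822, 0.603 and 0.826 CPM against 1.12, 0.861 and 0.999 CPM, did not pass the test (-0.53 ± 0.25, adjusted p = 0.106, edgeR).

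Markers of other cells moved with the cTEC comparison too. In heterozygous against homozygous cTEC, 6 of 10 fibroblast markers and 3 of 7 Schwann and neural crest markers were higher, and all 12 thymocyte markers and all 6 cortical markers were lower. Of all genes tested, 20.9% were called higher and 21.9% lower. The medullary markers divided. Krt5 (547 against 95.3 CPM), Krt14 (197 against 40.1 CPM) and Ccl21a (107 against 47.9 CPM) were higher and made the sum of the 8 higher (751 to 932 against 206 to 235 CPM), while Aire (1.42 against 2.25 CPM), Fezf2 (0.275 against 0.635 CPM), Cd80 and Cd40 were lower. The part of these cells in the Ttn and Des levels was not tested. Among the other muscle genes, 21 were higher and 10 lower of the 47 that passed the filter in cTEC alone, and 1 of the remaining 36 was called, lower. Sln, the sarcolipin that restrains the calcium pump, rose from 0.203 to 12.5 CPM (5.79 ± 0.77, adjusted p = 3.92e-05, edgeR), with 310, 68 and 443 counts against 2, 4 and 7. Mybpc1 (9.75 against 0.945 CPM) and Myh8 (6.95 against 0.685 CPM) were higher, as in mTEC, and Ache (158 against 715 CPM) and Trdn were lower.

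The difference between the 2 dose effects was tested directly in the same fit. A lower dose difference in mTEC than in cTEC was found for 3 genes: Ttn (-1.70 ± 0.30, adjusted p = 5.38e-04, edgeR), Actc1 (-3.15 ± 1.02, 0.0238) and Des (-0.86 ± 0.25, 0.0129). Over all genes tested 42.5% were called, 25.2% higher and 17.2% lower. The Ttn call was kept in all 10 fits that left out a library, the Des call was lost without homozygous cTEC library 1 (adjusted p = 0.0576) and the Actc1 call was lost in 6 fits. With all 20 libraries in 1 fit, the Ttn and Des calls were lost (adjusted p = 0.0914 and 0.597, edgeR). Ryr1 (1.35 ± 0.53, adjusted p = 0.0574) and Myog (-1.95 ± 0.79, 0.0635) did not pass the test but lay near the threshold. Ryr1 was called higher with the replicate block (0.0383) and in 4 of the 10 fits that left out a library (adjusted p = 0.0229 to 0.0438). Myog was called lower with the block (0.0358), with no factors (0.0481) and without heterozygous cTEC library 2 or 3 (0.0138 and 0.0157).

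The last comparison set cTEC with Foxn1 deleted against control cTEC. Enough counts to be tested were found for 5 of the 10 genes (Acta1, Ttn, Musk, Des and Ryr1), and none was called by edgeR, DESeq2 or limma-voom or in any fit that left out a library. None had an unadjusted p under 0.05 with edgeR. Over all 15224 genes tested 1.97% were called, 0.282% higher and 1.69% lower. Chrna1, Myog, Myod1, Ckm and Actc1 were not tested, since they had at most 14 counts in a library.

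Acta1 came nearest, with 34, 8, 17, 14 and 31 counts in deleted and 20, 4, 6, 13 and 9 counts in control cTEC. The ranges overlapped, and the log2 difference was 1.02 ± 0.50 (adjusted p = 0.292, edgeR). Des ranged from 0.502 to 5.41 CPM in deleted (median 2.63) and from 0.866 to 6.35 CPM in control cTEC (median 3.34), a log2 difference of -0.16 ± 0.60 (adjusted p = 0.911). Ttn ranged from 1.51 to 6.32 and from 1.26 to 5.12 CPM (0.20 ± 0.48, adjusted p = 0.848), and Musk had -0.42 ± 0.38 (0.578). Ryr1 was at 0.906 to 2.06 CPM in control and 0.919 to 1.25 CPM in deleted cTEC, with -0.29 ± 0.26 (0.585).

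Library 2 of both groups had the lowest Des level and the lowest summed medullary markers (528 and 448 CPM, against 671 to 1749 CPM in the other 8), and its Aire counts were 43 in control and 23 in deleted cTEC against 86 to 337 in the others. Leaving out library 2 of both groups gave no call either. Of the other muscle genes 50 were tested and 3 were called, all lower in deleted cTEC: Ache (51.7 against 374 CPM, log2 difference -2.89 ± 0.38, adjusted p = 0.00934, edgeR), Actn3, the fast alpha-actinin (31.96 against 173 CPM, -2.48 ± 0.37, 0.0113), and Megf10 (5.23 against 17.8 CPM, -1.78 ± 0.34, 0.0315). These 3 were also lower with the heterozygous than with the homozygous transgene in cTEC (-2.31 ± 0.15, -0.76 ± 0.07 and -0.77 ± 0.14 in the same order), which compares other mice. In homozygous mice all 3 were lower in mTEC than in cTEC. In heterozygous mice Megf10 was lower in mTEC too, but Ache and Actn3 were higher there (for Actn3, 284 against 217 CPM in heterozygous and 258 against 334 CPM in homozygous mice).

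The profile of each gene over the 20 libraries was compared with those of 19664 other genes, by the root mean square distance of log2(CPM + 0.5) after centring each gene on its mean. Nearest to Chrna1 was Sez6l2, a neuronal membrane protein (distance 0.18, where the SD of Chrna1 itself was 2.07), followed by Pvalb, a calcium buffer of fast muscle and neurons, and Gm7325. Nearest to Ckm were Sstr3, a somatostatin receptor (0.22), Chrnd (0.22) and Siglec15. Ryr1 lay nearest to Grm4, a glutamate receptor (0.29), and then to the muscle genes Chrng and Tnnt3 (both 0.32). Acta1 lay nearest to Cr2, the complement receptor (0.32), and then to Myom2, an M-band protein (0.36). Actc1 lay nearest to Prox1 (0.34), Neurl1a and Chrnd, Ttn to Chst1 (0.32), Des to Il18r1 (0.34), Musk to Ms4a4d (0.37), Myod1 to Lhx5 (0.09) and Myog to Clca4 (0.49). The points share 4 mTEC libraries that are high for 9 of the 10 genes, so these distances mostly rank genes by the size of that step.

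In position, Des (75360292 to 75368579) and Myog (134290004 to 134292548) lie on chromosome 1, Chrna1 (73563281 to 73580338), Ttn (76703980 to 76982557) and Actc1 (114047282 to 114052875) on chromosome 2, and Musk (58285729 to 58377848) on chromosome 4, in RefSeq coordinates of GRCm38.p6. Ckm (19411094 to 19421583), Ryr1 (29003340 to 29125179) and Myod1 (46376474 to 46379092) lie on chromosome 7 and Acta1 (123891758 to 123894775) on chromosome 8. Chrna1, Ckm, Des and Ryr1 overlap noncoding genes in that annotation, and those in the count table held at most 16 counts in a library. The strand setting of the counting is not given in the sources used here, so reads of overlapping genes cannot be told apart.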

How the data were processed

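The authors deposited whole-number read counts per gene in 1 table, with 20 libraries in 6 groups and 38720 genes named by symbol. The submitters' processing notes name TopHat2 2.0.10, Trimmomatic 0.32, featureCounts and SAMtools and the builds GRCm38 and mm10, without the step of each. Which annotation and strand setting were used is not given in the sources used here. Totals were 20719630 to 22372633 counts. Chromatin libraries were not analysed here.

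Counts were tested with the quasi-likelihood test of edgeR 4.0.16 (R 4.3.3) after TMM scaling and filterByExpr (minimum count 10, minimum total 15). Benjamini-Hochberg adjustment ran over all genes tested, with a threshold of 0.05, two-sided. The 10 floxed libraries were fitted apart from the 10 transgenic libraries, whose 4 groups share an estimate of spread. The dose and subset comparisons share groups. CPM uses raw totals. Log2 fold changes are the first named group minus the second, with their SE. Against a group with 0 counts, folds are bounds from 3 counts over the group, and intervals cover counting error only. The test was tested on simulated data. No libraries agreed within sampling noise.

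The 10 members and the gene lists were chosen with earlier results of these data known. Beside the members, the text names list genes by adjusted p, up to 3 a list and direction. The rest (such as Chrnb1, Myh4, Mylpf, Myl4, Xirp2 and Mef2d) were named after their values were seen. Alternatives were the size factors of DESeq2, no factors, no filter, DESeq2 1.42.0, limma-voom (limma 3.58.1), all 20 libraries in 1 fit, a replicate block and leaving out each library. Fits of a subset's own groups and fits without certain libraries were added after seeing the data. Sequences, positions and overlaps come from RefSeq tables of GRCm38.p6.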

Additional observations from a re-analysis of the deposited data

Results flagged for a closer look

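Actc1 in deleted cTEC was at 0.676 CPM (14 counts) in library 5, where the next library was at 0.321 CPM. The gap was 0.791 of the range of the 5 libraries. A library this far from the others was found in 1 of 19 pairs of gene and floxed group with any counts, and chance gives about 1 in 20. The cause was not tested.

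The dose difference (heterozygous minus homozygous) differed between mTEC and cTEC for Actc1 by -3.15, for Ttn by -1.70 and for Des by -0.86 on the log2 scale, each past the threshold in edgeR's test of the difference itself. With all 20 libraries in 1 fit the Ttn and Des calls were lost, and without the filter on low counts the Actc1 call was lost. For Ttn the cTEC difference was 1.58 ± 0.25 (SE) and the mTEC difference -0.12 ± 0.16. For Des they were 0.73 ± 0.23 and -0.13 ± 0.09, and for Actc1 3.64 ± 0.97 and 0.49 ± 0.17, the former from 32 counts against 2. Of 8 medullary markers in cTEC, Krt5, Krt14 and Ccl21a were higher with the heterozygous transgene, as these 3 genes were, and Aire, Fezf2, Cd80 and Cd40 were lower. The sum of the 8, carried by the former, was 751 to 932 CPM with the heterozygous and 206 to 235 CPM with the homozygous transgene, and its part was not tested.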

How the results depend on the processing

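All 10 genes stayed called higher in mTEC at both doses in every alternative run, and none was called after the deletion in any. For the dose in cTEC, the 4 calls became 2 with limma-voom, with all 20 libraries in 1 fit and without library 1 of both heterozygous groups, 1 with the cTEC libraries alone by edgeR or DESeq2, and 2 to 4 when a library was left out. For the dose in mTEC, the 5 calls became 3 with DESeq2, 1 with all 20 libraries and 3 to 5 when a library was left out. For the difference of the dose effects, the 3 calls became 5 with the replicate block (adding Myog and Ryr1), 1 with all 20 libraries and 2 to 4 when a library was left out. With all 20 libraries the Ttn and Des differences lost their calls (adjusted p = 0.0914 and 0.597, edgeR). With no filter on low counts the Actc1 difference did (0.0851). Without library 1 of both heterozygous groups, which leaves 1 heterozygous mTEC library, the differences went from -3.15 to -1.98 (Actc1), -0.86 to -0.84 (Des) and 1.35 to 1.93 (Ryr1). No reversed value was called. Without library 1 of both heterozygous groups, the cTEC dose values were -0.35 for Chrna1, -0.50 for Ckm, -0.54 for Acta1 and -0.40 for Ryr1, the mTEC value of Ttn was 0.12, and the differences of Ckm and Acta1 were 1.74 and 1.60. The difference of Musk was -0.11 with the size factors of DESeq2, -0.14 with none, -0.0172 with no filter and -0.10 with DESeq2, and with limma-voom those of Ckm and Acta1 were 0.35 and 0.46. Leaving out a library gave, for the deletion, -0.25 to 0.62 (Ttn) and -0.46 to 0.22 (Des). It gave, for the cTEC dose, -0.54 to 1.18 (Chrna1), -2.46 to 0 (Myod1), -0.52 to 2.61 (Ckm), -0.55 to 1.54 (Acta1) and -0.41 to 0.58 (Ryr1), for the mTEC dose -0.40 to 0.18 (Ttn), and for the difference -1.61 to 0.10 (Chrna1), -0.66 to 1.80 (Myod1), -1.36 to 1.77 (Ckm), -0.51 to 1.59 (Acta1) and -0.12 to 0.15 (Musk). The cause of these turns was not tested. Over the whole table, the 300 genes called after the deletion became 1108 with DESeq2, 104 with limma-voom, 1220 with the replicate block, 1541 with all 20 libraries, 474 without library 2 of both groups and 27 to 920 when a library was left out. With all 20 libraries the cTEC dose, mTEC dose and difference counts fell from 8225, 11472 and 8162 to 4862, 6819 and 4140. With no factors the higher and lower calls of the cTEC dose were 5931 and 2859 (4024 and 4201 as reported) and the median of all genes shifted by 0.11 there, 0.24 in the homozygous subset comparison (9581 and 5724, against 8303 and 7577) and -0.16 in the difference (3101 and 4123, against 4848 and 3314). With the size factors of DESeq2 it shifted by -0.13 in the mTEC dose (3911 and 7082, against 5550 and 5922), 0.18 in the homozygous subset comparison and -0.13 in the difference (3403 and 3925). Same-numbered floxed libraries correlated at 0.08 to 0.67 in their deviations, 1 of 5 under 0.1, and differently numbered ones at -0.50 to 0.25. The floxed numbers may therefore mark pairs, which the sources used here do not name. The reported deletion test used no pairs, so its p-values ignore any pairing, and the replicate block is the fit that allows for it. Same-numbered transgenic libraries of the 2 doses correlated at 0.02 to 0.05, and their numbers were not taken as pairs. The block changed no call of the 10 genes other than the 2 named. Depth limits Chrna1, Myog, Myod1, Ckm, Acta1 and Actc1 in cTEC.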
